A study of Mus musculus with 22 samples.

Results

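Transcripts of 10 genes of the oncostatin, JAK-STAT and SOCS pathway were followed in the distal colon of mice with spontaneous colitis. The genes were the cytokines Osm (oncostatin M) and Lif (leukaemia inhibitory factor), the receptor chain Osmr, the kinases Jak2 and Jak3, the transcription factors Stat3, Stat4 and Stat6, and the feedback inhibitors Socs1 and Socs3. They were found by exact match of their symbols, and all 10 were among the 46078 genes of the count table. RNA-Seq of polyadenylated RNA was available for 22 mice in 3 groups. The control group held 8 wild-type C57BL/6 mice aged 14 weeks (4 male, 4 female). The Winnie group held 7 mice labelled as inflamed, aged 14 weeks (3 male, 4 female), which carry a missense mutation of the mucin gene Muc2 and develop inflammation without further treatment. The Winnie-Prolapse group held 7 Winnie mice labelled as severely inflamed, aged 18 weeks (4 male, 3 female). Age and prolapse cannot be told apart in this design. The mutation is present in every cell of the animal, and the labels name no agent given to any group. In Winnie-Prolapse colon, transcripts of both cytokines, of Osmr, and of both Socs genes were higher than in C57BL/6 colon, by 6.55-fold to 21.2-fold for Lif, Osmr, Socs1 and Socs3, and for Osm by 92.3-fold over controls with 1 to 8 counts per library (log2 fold change 6.53, or 3.41 without the 5 libraries that held squamous epithelium markers), whereas Jak2, Stat3 and Stat6 differed by 1.57-fold or less. Jak3, Stat4 and Stat3 were also higher by the limits given below with all libraries, but did not pass them without those 5 libraries.

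Oncostatin M and LIF belong to the interleukin-6 family. They signal through receptors that share the chain gp130 (Il6st), paired with Osmr for oncostatin M or with Lifr for LIF, and receptor-bound JAK kinases then phosphorylate STAT proteins, chiefly STAT3, which enter the nucleus. Socs1 and Socs3 are themselves switched on by STAT proteins, and their products bind JAKs and receptors and dampen the signal. Jak3 acts with the common gamma chain of receptors on lymphocytes, Stat4 acts downstream of interleukin-12 and Stat6 downstream of interleukin-4 and interleukin-13. In the gut, oncostatin M is mostly made by myeloid and T cells, and its receptor is found mainly on stromal cells such as fibroblasts and endothelium.

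DNA just before a RefSeq start of 3 of these genes is shown because Socs1, Socs3 and Lif were among the genes that rose and hold short motifs of inducible transcription factors there. The stretches come from RefSeq promoter windows of build GRCm38, cover at most the 250 bases before the annotated start, leave out annotated exons of the gene, and are written on the gene's own strand. The start of Socs3 in RefSeq lies 681 bases inside the gene as GENCODE draws it, so the stretch shown for Socs3 lies within that gene's span. Capitals mark the motif matches.
Socs1, chr16:10785537-10785786 (minus strand): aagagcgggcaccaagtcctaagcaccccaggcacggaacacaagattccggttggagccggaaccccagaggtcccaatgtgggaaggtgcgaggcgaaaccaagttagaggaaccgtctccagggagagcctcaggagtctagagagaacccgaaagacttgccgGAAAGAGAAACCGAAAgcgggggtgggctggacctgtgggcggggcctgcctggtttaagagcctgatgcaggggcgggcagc
Socs3, chr11:117969452-117969616 (minus strand): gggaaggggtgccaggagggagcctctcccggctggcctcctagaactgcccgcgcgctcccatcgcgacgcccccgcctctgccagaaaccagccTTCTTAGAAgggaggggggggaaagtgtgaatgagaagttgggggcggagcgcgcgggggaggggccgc
Lif, chr11:4257318-4257556 (plus strand): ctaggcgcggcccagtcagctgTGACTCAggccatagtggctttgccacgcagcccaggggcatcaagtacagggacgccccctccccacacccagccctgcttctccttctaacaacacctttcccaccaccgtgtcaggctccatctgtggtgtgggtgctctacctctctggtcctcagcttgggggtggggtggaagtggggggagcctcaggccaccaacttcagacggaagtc

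Both strands were searched for 4 motifs over 32851 windows of 250 bases. Socs1 held the interferon regulatory factor motif, GAAA and again GAAA with 2 bases of any kind between them, at 2 overlapping places, 83 to 74 and 77 to 68 bases before its start. This motif was present in 2.98% of all windows. Socs3 held the STAT motif TTCNNNGAA, known as a gamma-activated site, 154 to 146 bases before its start, and 7.02% of all windows held it. Lif held the AP-1 motif TGANTCA, at 228 to 222 bases before its start, and 6.75% of windows held it. One of the 2 RefSeq starts of Stat4 also had an interferon regulatory factor motif, 97 to 88 bases upstream. The STAT6 motif, TTC and GAA with 4 bases of any kind between them, present in 5.85% of windows, occurred in none of the windows of the 9 genes that had an entry. Over those windows, the interferon regulatory factor motif occurred in 2, TTCNNNGAA in 1 and TGANTCA in 1. The windows of Osmr, Jak3 and Stat3, which also rose, and of Jak2 and Stat6 held none of the 4 motifs. A match is a stretch of letters only and was not tested for binding.

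Each library held 24.8 to 36.3 M (mega) counts assigned to genes, so 1 library with 3 counts of a gene corresponds to 0.0825 to 0.121 CPM, the count divided by the library's total in M. Colonocyte marker genes were present in every library, with a median summed level of 13117 CPM in C57BL/6 and 7350 CPM in Winnie-Prolapse. Smooth muscle markers were present too, at 7720 to 14292 CPM in C57BL/6, 2301 to 8712 CPM in Winnie and 1568 to 3733 CPM in Winnie-Prolapse. Macrophage and monocyte markers summed to 105 to 273 CPM in C57BL/6, 178 to 436 CPM in Winnie and 289 to 816 CPM in Winnie-Prolapse, and B and plasma cell markers to 491 to 827, 774 to 1907 and 1478 to 2280 CPM. For smooth muscle, macrophage and B cell markers the sums of Winnie-Prolapse and C57BL/6 did not overlap. Summed squamous epithelium markers were 3.35 to 6.69 CPM in 16 libraries, 51.9 CPM in Winnie replicate 2, and 362 to 2860 CPM in Winnie-Prolapse replicates 2, 4, 5, 6 and 7. Milk protein genes made up 179624 CPM of Winnie-Prolapse replicate 6. Neutrophil markers other than Ly6g, whose counts were high in 7 of 8 controls, summed to 0.471 to 3.59 CPM in C57BL/6, 1.71 to 135 CPM in Winnie and 72.9 to 1439 CPM in Winnie-Prolapse. In bulk tissue, fewer cells of a type and less RNA per cell cannot be told apart, and the part of cell composition in the results that follow was not tested.

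**Figure D1:**
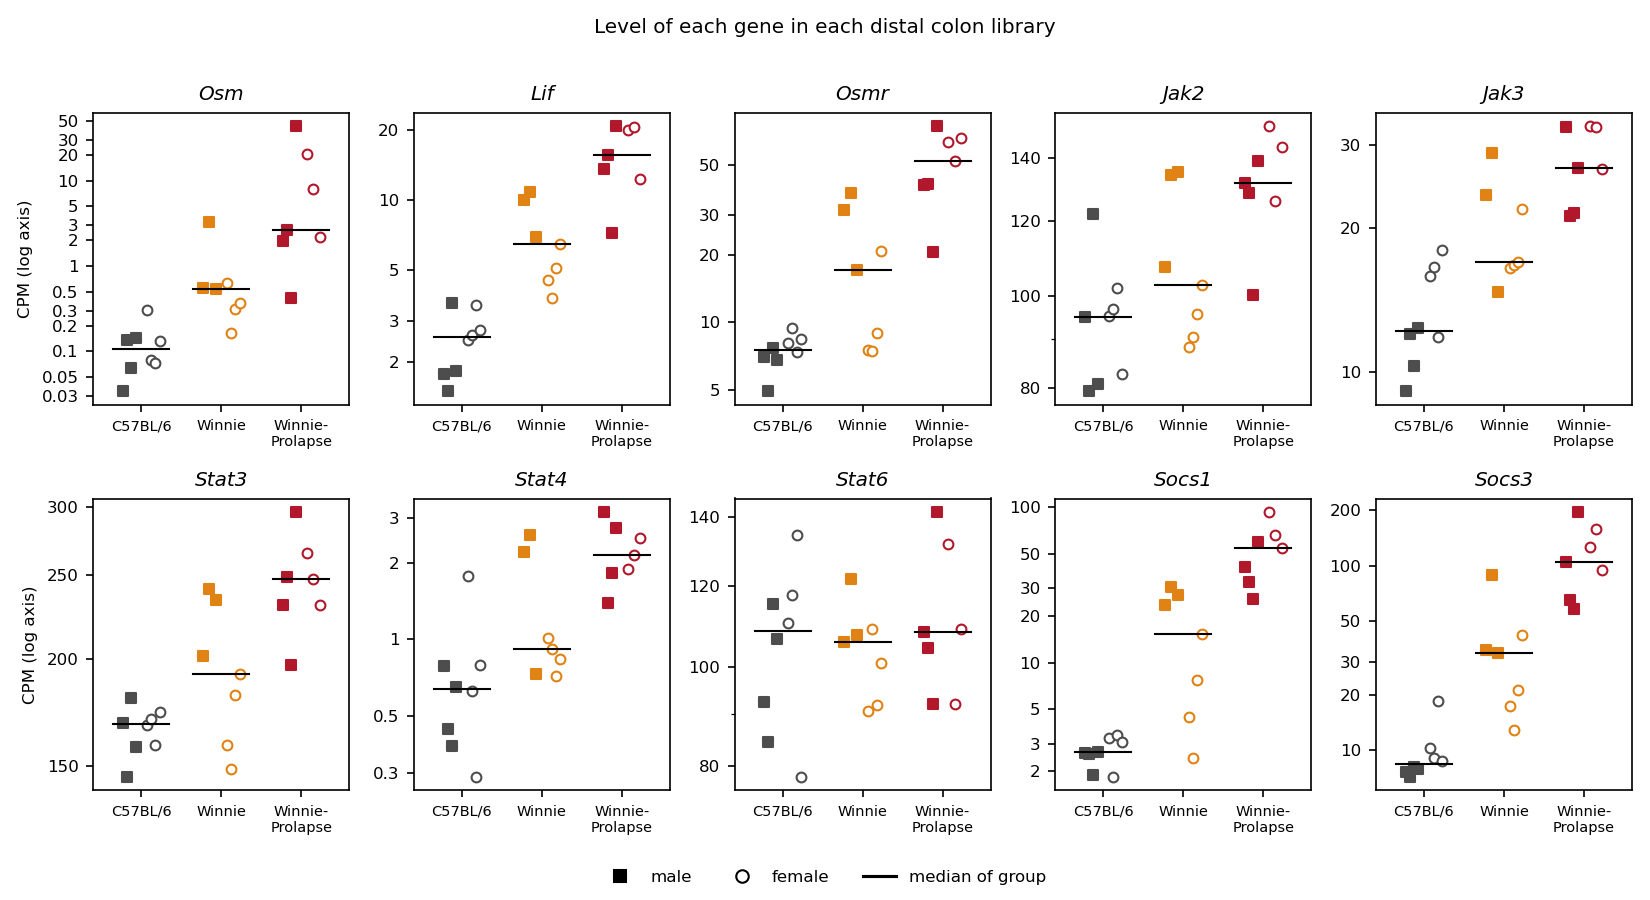
CPM of each of the 10 genes in each library (log axis, own scale per panel), by group, with filled squares for males, open circles for females and a line at the group median. Osm, Lif, Osmr, Socs1 and Socs3 step up from C57BL/6 to Winnie to Winnie-Prolapse, with the widest spread for Osm (0.0342 to 43.4 CPM), while Stat6 stays between 78.1 and 142 CPM in all 3 groups.

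With Winnie-Prolapse set against C57BL/6, 7 of the 9 genes other than Osm rose (Osmr, Lif, Jak3, Stat3, Stat4, Socs1 and Socs3) and 0 fell. The limits were a Benjamini-Hochberg adjusted p under 0.001 and a 1.5-fold difference in edgeR's quasi-likelihood test across all genes. Over the whole set of 17397 genes tested, 9.84% were higher and 8.47% lower by the same limits. In 6 of the 9 genes other than Osm every Winnie-Prolapse library lay above every C57BL/6 library, against 6.5% of all genes. Without the 5 libraries that held squamous markers, which leaves 2 Winnie-Prolapse libraries, 4 genes stayed past the limits (Lif, Osmr, Socs1 and Socs3), beside 2.29% of all genes higher, and all 10 differences stayed above 0. Osm passed the same limits, but it passed the low-count filter only through libraries in which it was high, since its counts in C57BL/6 were 1 to 8 per library. In a fit without that filter, which tests a gene whatever group it is high in, 8 of 10 genes rose, Osm among them, beside 6.33% of all genes higher and 4.28% lower. Stat3 fell just short of 1.5-fold without TMM scaling of library sizes (log2 fold change 0.58), and Osm lost its call in limma-voom (5.30). Stat4 lost its call without C57BL/6 replicate 2, 4 or 6, or Winnie-Prolapse replicate 1 or 7 (adjusted p 0.00111 to 0.0013).

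In Winnie against C57BL/6, 0 of the 9 genes tested passed the same limits, as did 0.0868% of 17289 genes in the upward direction. By DESeq2, 4 genes passed them (Lif, Osmr, Socs1 and Socs3), beside 4.03% of all genes higher. An unadjusted p under 0.05 was found for 8 of 9 genes and for 39.9% of all genes. At the wider limit of an adjusted p under 0.05 with a 1.5-fold difference, 5 genes were higher (Lif, Osmr, Jak3, Socs1 and Socs3) and 0 lower, beside 7.42% of all genes higher and 8.53% lower. Lif was the 1 gene whose groups did not overlap, against 0.463% of all genes. Without Winnie replicate 5, a female library with the lowest value of the group for 6 of the 10 genes, 3 genes passed the stricter limits, beside 2.5% of all genes higher (Lif, log2 fold change 1.61 and adjusted p = 0.000375; Socs1, 2.82 and 9.6e-05; Socs3, 2.11 and 0.00037; edgeR). The call of Jak3 at the wider limit was lost without Winnie replicate 2, where its difference fell just short of 1.5-fold (log2 fold change 0.58). Stat4 reached the wider limit without C57BL/6 replicate 5 (1.24, adjusted p = 0.0206).

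In Winnie-Prolapse against Winnie, 0 of the 10 genes passed the stricter limits, and 0% of all 17041 genes were higher by them. DESeq2 placed 2 of the 9 genes other than Osm past those limits (Lif and Socs3), beside 2.01% of all genes higher, and Osm as well. An unadjusted p under 0.05 was found for 9 of 10 genes and for 27.8% of all genes. That count includes Osm, which entered the fit only with the Winnie-Prolapse libraries. At the wider limit 4 of the 9 genes other than Osm were higher (Osmr, Lif, Socs1 and Socs3), beside 4.27% of all genes higher and 2.72% lower. Osm was past it too, but it again passed the low-count filter only with the Winnie-Prolapse libraries. No gene separated the groups fully, against 0.411% of all genes that did. A fit without that filter placed 5 of 10 genes past the wider limit, Osm among them, beside 3.26% of all genes higher. The call of Osm was lost without Winnie replicate 3, 4, 5, 6 or 7 or Winnie-Prolapse replicate 4 or 5 (adjusted p 0.055 to 0.0669). That of Osmr was lost without any of Winnie replicates 3 to 7 or Winnie-Prolapse replicates 4 to 7 (0.0517 to 0.0647), that of Socs1 without Winnie replicate 4, 6 or 7 or Winnie-Prolapse replicates 4 to 7 (0.0524 to 0.0754), and that of Socs3 without Winnie replicate 4 (0.0513). The call of Lif held with each library left out in turn. Without Winnie replicate 2, Jak3 (0.59, adjusted p = 0.0371) and Stat4 (1.05, adjusted p = 0.0324) also passed. With the squamous-marker libraries left out, none of the 10 genes passed, beside 0.00554% of all genes higher. Their adjusted p-values were 0.862 to 0.995 (edgeR). Over all alternatives tried, the log2 fold change ran from 0.57 to 4.73 for Osm, and from 0.58 to 2.45 for Osmr. The range was 0.597 to 1.85 for Lif, 0.55 to 3.25 for Socs1 and 1.01 to 2.47 for Socs3. The 3 comparisons share libraries and are not independent of each other.

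**Figure D2:**
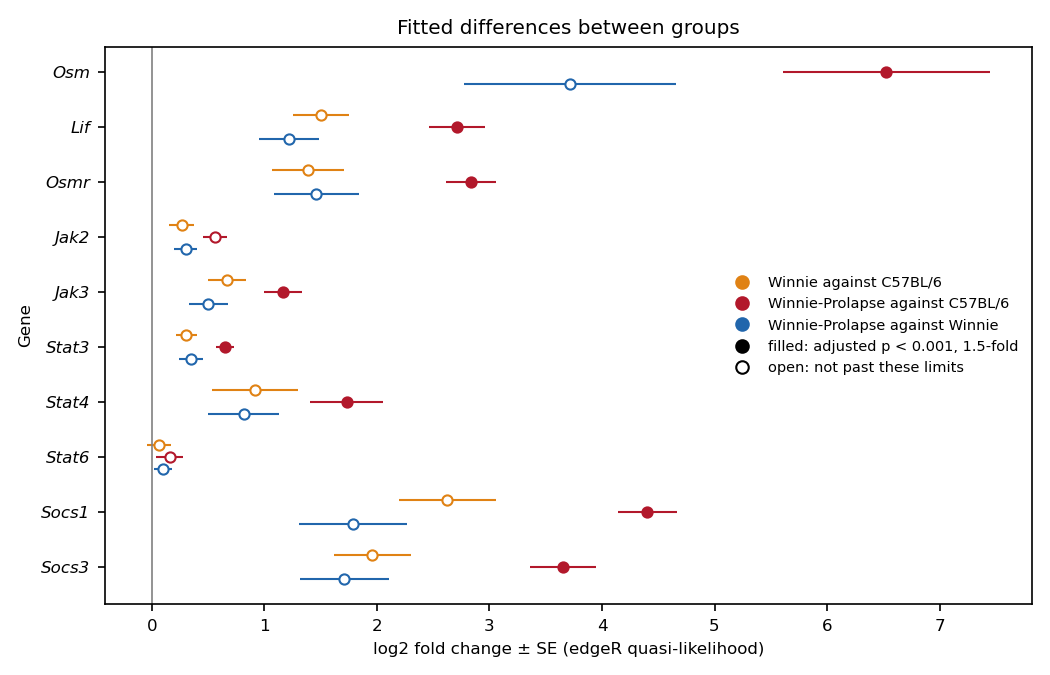
Log2 fold change of each gene in each comparison from edgeR, with bars for the standard error (Osm was not tested in Winnie against C57BL/6). Filled points passed an adjusted p under 0.001 with a 1.5-fold difference, which happened only in Winnie-Prolapse against C57BL/6, with values from 0.65 for Stat3 to 6.53 for Osm.

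Osm, the ligand, was close to absent from control colon. Its lowest, median and highest levels were 0.0342, 0.106 and 0.309 CPM in C57BL/6, 0.164, 0.540 and 3.30 CPM in Winnie, and 0.424, 2.65 and 43.4 CPM in Winnie-Prolapse. The 8 control libraries held 27 counts of Osm together, a pooled level of 0.119 CPM with an exact 95% Poisson interval of 0.0784 to 0.173 CPM that covers counting error only. All 7 Winnie-Prolapse libraries and 6 of 7 Winnie libraries lay above all controls. The mean ± SD was 0.121 ± 0.0855 CPM (n = 8), 0.840 ± 1.10 CPM (n = 7) and 11.3 ± 15.8 CPM (n = 7), so the spread within Winnie-Prolapse was larger than its mean. In fits without the low-count filter, Winnie-Prolapse exceeded C57BL/6 by 6.53 on the log2 scale (SE 0.89, adjusted p = 3.5e-05), Winnie exceeded C57BL/6 by 2.83 (SE 0.59, adjusted p = 0.0063), and Winnie-Prolapse exceeded Winnie by 3.70 (SE 0.92, adjusted p = 0.0322, edgeR). Without the squamous-marker libraries, and with the filter, the difference between Winnie-Prolapse and C57BL/6 was 3.41 (SE 0.54). That fit kept Winnie-Prolapse replicates 1 and 3, with 1.98 and 0.424 CPM. Over the alternatives tried, the difference between Winnie-Prolapse and Winnie ran from 0.57 to 4.73 on the log2 scale.

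The highest Osm levels in Winnie-Prolapse were 43.4 CPM in replicate 4, 20.5 CPM in replicate 5 and 7.98 CPM in replicate 6. The same 3 libraries held the highest neutrophil marker sums without Ly6g, 1439, 489 and 433 CPM. In Winnie, replicate 2 had the highest value of both (3.30 CPM of Osm and 135 CPM of neutrophil markers). Without Winnie-Prolapse replicate 4 the group mean of Osm was 5.95 CPM, and without Winnie replicate 2 the Winnie mean was 0.430 CPM. The part of neutrophil number in the level of Osm was not tested.

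Osm spans chr11:4236420-4241026 on the plus strand of GRCm38, and Lif, its neighbour in the same orientation, begins 16530 bases after its end (chr11:4257557-4272514). Lif encodes a cytokine of the same family. Across libraries the lowest, median and highest level was 1.504, 2.57 and 3.62 CPM in C57BL/6, 3.77, 6.46 and 10.8 CPM in Winnie, and 7.17, 15.6 and 20.7 CPM in Winnie-Prolapse. Every Winnie and every Winnie-Prolapse library lay above all controls, and 6 of 7 Winnie-Prolapse libraries lay above all Winnie libraries. The log2 fold change was 1.5 (SE 0.25, adjusted p = 0.00209) in Winnie against C57BL/6, 2.71 (SE 0.25, adjusted p = 9.53e-07) in Winnie-Prolapse against C57BL/6, and 1.22 (SE 0.27, adjusted p = 0.0195) between the Winnie groups (edgeR).

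Osmr, the signalling chain that binds oncostatin M, lies on the minus strand at chr15:6813577-6874969. From lowest through median to highest, its libraries read 4.96, 7.57 and 9.44 CPM in C57BL/6, 7.48, 17.2 and 37.6 CPM in Winnie, and 20.5, 51.7 and 74.0 CPM in Winnie-Prolapse. Winnie overlapped the controls in 3 of 7 libraries, all female, while all 7 Winnie-Prolapse libraries lay above the controls. On the log2 scale the difference was 1.39 (SE 0.32, adjusted p = 0.00848) in Winnie and 2.84 (SE 0.22, adjusted p = 1.94e-07) in Winnie-Prolapse, each against C57BL/6. It was 1.46 (SE 0.38, adjusted p = 0.0314) between the Winnie groups (edgeR). In Winnie-Prolapse the lowest library was replicate 3 for Osm, Lif and Osmr alike.

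**Figure D3:**
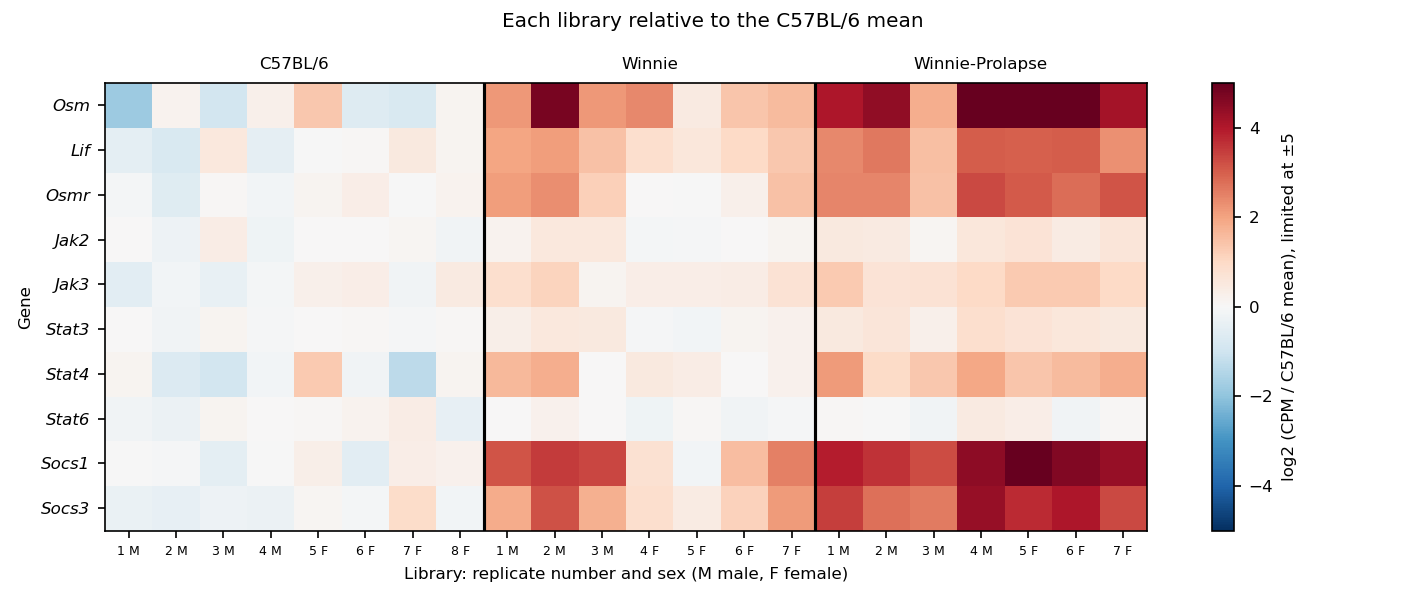
Log2 ratio of CPM to the C57BL/6 mean for each gene (rows) in each library (columns, with replicate number and sex), with colours limited at 5 in either direction. Winnie replicate 2 has the highest value of its group for 9 of the 10 genes, and Winnie-Prolapse replicate 3 the lowest of its group for 8.

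The kinase Jak2, which serves many cytokine receptors including gp130, differed little in level between groups. The lowest, median and highest library had 79.3, 95.1 and 122 CPM in C57BL/6, 88.3, 102.7 and 135 CPM in Winnie, and 100.3, 131.6 and 151 CPM in Winnie-Prolapse. In Winnie-Prolapse against C57BL/6 its log2 fold change was 0.56 (SE 0.11, adjusted p = 0.000573, edgeR), past the limit on p but not the 1.5-fold limit. It passed both without C57BL/6 replicate 3 or 7 or Winnie-Prolapse replicate 2 or 3 (0.59 to 0.64). Jak2 lies at chr19:29251828-29313080 on the plus strand.

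Jak3, the lymphocyte kinase, was higher in diseased colon. Its lowest, median and highest levels were 9.09, 12.2 and 18.0 CPM in C57BL/6, 14.7, 17.0 and 28.8 CPM in Winnie, and 21.3, 26.8 and 32.8 CPM in Winnie-Prolapse. Winnie overlapped the controls in 4 of 7 libraries, and Winnie-Prolapse in none. The log2 fold change was 0.67 (SE 0.17, adjusted p = 0.0124) in Winnie and 1.17 (SE 0.17, adjusted p = 4.9e-05) in Winnie-Prolapse, each against C57BL/6 (edgeR). T cell markers, a list of 9 genes, summed to 6.70 to 30.4 CPM in C57BL/6, 16.8 to 46.9 CPM in Winnie and 26.0 to 65.1 CPM in Winnie-Prolapse, and their part in the level of Jak3 was not tested. The gene lies at chr8:71676296-71690575 (plus strand) and overlaps Insl3 on the same strand, which had at most 0.473 CPM.

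Stat3, the main transcription factor below gp130, was abundant in every library. Across libraries the lowest, median and highest level was 146, 168 and 180.1 CPM in C57BL/6, 149, 192 and 241 CPM in Winnie, and 197, 248 and 296 CPM in Winnie-Prolapse. The C57BL/6 libraries differed little (SD 10.7 CPM around 165 CPM), and all 7 Winnie-Prolapse libraries lay above them. On the log2 scale the difference was 0.65 (SE 0.08, adjusted p = 1.46e-05) in Winnie-Prolapse against C57BL/6, a 1.57-fold rise close to the limit. It was 0.53 (adjusted p = 0.00593) without the squamous-marker libraries and 0.31 (SE 0.10, adjusted p = 0.0285) in Winnie against C57BL/6 (edgeR). Stat3 lies at chr11:100885098-100939540 on the minus strand and overlaps Stat5a on the other strand, whose mean was 10.6 CPM in C57BL/6 and 13.2 CPM in Winnie-Prolapse. Whether counting used the strand is not given in the sources used here.

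Stat4, which carries interleukin-12 signals in T and natural killer cells, was low throughout. From lowest through median to highest, its libraries read 0.290, 0.640 and 1.77 CPM in C57BL/6, 0.719, 0.919 and 2.56 CPM in Winnie, and 1.39, 2.14 and 3.17 CPM in Winnie-Prolapse, or 8 to 107 counts per library. All but 1 of the Winnie-Prolapse libraries lay above all controls, and C57BL/6 replicate 5 was the control that overlapped. That library also had the highest T cell marker sum of its group (30.4 CPM). The log2 fold change in Winnie-Prolapse against C57BL/6 was 1.73 (SE 0.32, adjusted p = 0.000405, edgeR). Stat4 lies at chr1:51987148-52107189 on the plus strand.

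Stat6, which carries interleukin-4 and interleukin-13 signals, did not pass a test in any comparison. The lowest, median and highest library had 78.1, 108 and 134.5 CPM in C57BL/6, 90.7, 106 and 122 CPM in Winnie, and 91.9, 108 and 142 CPM in Winnie-Prolapse, so the groups overlapped almost fully. The log2 fold change was 0.06 (SE 0.11) in Winnie and 0.16 (SE 0.12, adjusted p = 0.277) in Winnie-Prolapse, each against C57BL/6 (edgeR). The sign in Winnie against C57BL/6 turned without TMM scaling (-0.01). Stat6 lies at chr10:127642986-127660957 on the plus strand and overlaps Nab2 on the other strand, whose mean was 7.16 to 10.2 CPM.

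Socs1, whose product blocks JAK kinases and which follows interferon signals in particular, rose the most after Osm. Its lowest, median and highest levels were 1.85, 2.65 and 3.41 CPM in C57BL/6, 2.43, 15.2 and 30.6 CPM in Winnie, and 25.6, 54.3 and 92.9 CPM in Winnie-Prolapse. Winnie replicate 5 was the 1 Winnie library inside the control range, and 6 of 7 Winnie-Prolapse libraries lay above all Winnie libraries. On the log2 scale the difference was 2.63 (SE 0.43, adjusted p = 0.00186) in Winnie and 4.40 (SE 0.27, adjusted p = 1.22e-08) in Winnie-Prolapse, each against C57BL/6. It was 1.79 (SE 0.48, adjusted p = 0.0363) between the Winnie groups (edgeR). Over the alternatives tried, the difference between Winnie-Prolapse and C57BL/6 ran from 3.79 to 4.77, and each kept its call. Socs1 lies at chr16:10782240-10785536 on the minus strand, next to the stretch shown above.

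Socs3, the inhibitor that binds gp130, rose alongside. Across libraries the lowest, median and highest level was 7.18, 8.39 and 18.4 CPM in C57BL/6, 12.9, 33.5 and 88.8 CPM in Winnie, and 58.2, 104.9 and 196 CPM in Winnie-Prolapse. Winnie-Prolapse did not overlap C57BL/6, and 5 of 7 Winnie libraries lay above all controls, with C57BL/6 replicate 7 the highest control. The log2 fold change was 1.96 (SE 0.34, adjusted p = 0.00246) in Winnie and 3.66 (SE 0.29, adjusted p = 2.4e-07) in Winnie-Prolapse, each against C57BL/6. It was 1.71 (SE 0.39, adjusted p = 0.0229) between the Winnie groups (edgeR). Socs3 lies at chr11:117966079-117970047 on the minus strand.

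Levels of different genes were compared per kb of merged exon. In C57BL/6 the order of the means was Stat6 (23.8 CPM per kb), Jak2 (18.7), Stat3 (17.4), Socs3 (3.34), Jak3 (2.48), Socs1 (0.921), Osmr (0.619), Lif (0.579), Stat4 (0.186) and Osm (0.0534). The ranges of Stat6, Jak2 and Stat3 overlapped, as did those of Socs3 and Jak3, and of Socs1, Osmr and Lif. The range of Stat4 overlapped those of Osmr, Lif and Osm. Stat3 exceeded Socs3 in every control library. In Winnie-Prolapse the inhibitor stood first with 39.7 ± 17.2 CPM per kb (SD, n = 7), ahead of Jak2 (26.1), Stat3 (25.7), Stat6 (25.3) and Socs1 (18.3), and it was above Stat3 in 5 of 7 libraries. In Winnie, Socs3 was above Stat3 in 1 of 7 libraries, replicate 2. The rest of the Winnie-Prolapse order was Jak3 (5.19), Osm (4.97), Osmr (4.21), Lif (3.60) and Stat4 (0.577), and the ranges of Jak3, Osm, Osmr and Lif overlapped, as did those of the first 5 genes, and that of Osm with those of Socs1 and Stat4. These orders rest on the annotated exon lengths and carry no test.

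**Figure D4:**
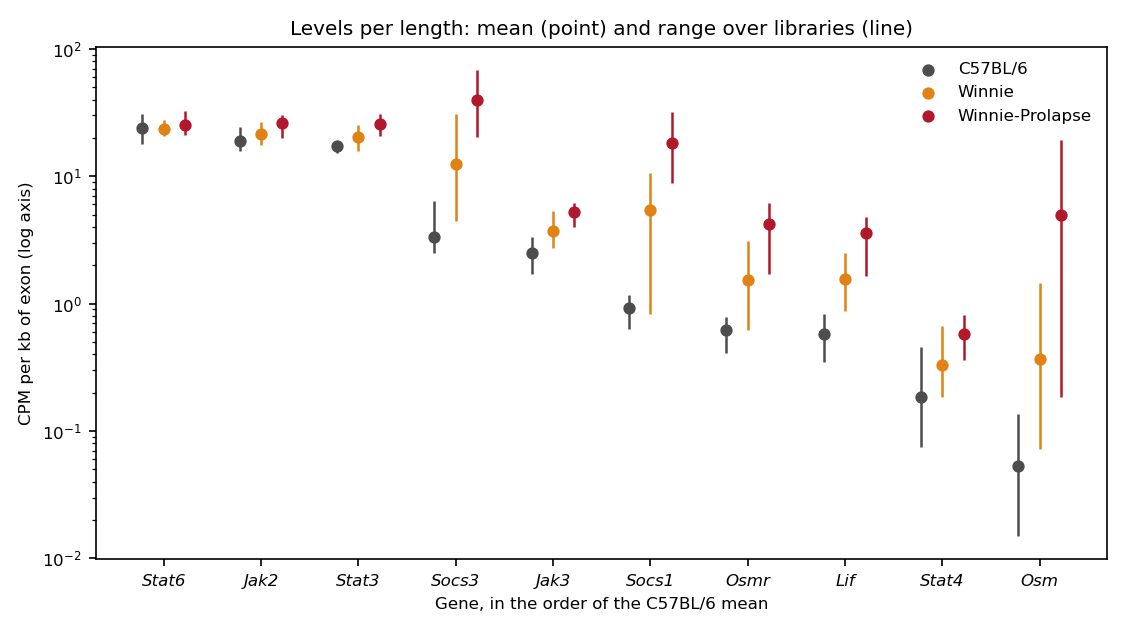
Level of each gene per kb of exon (log axis), with a point for the mean and a line from the lowest to the highest library of the group. Socs3 moves from a mean of 3.34 in C57BL/6, below Stat6, Jak2 and Stat3, to the highest mean in Winnie-Prolapse (39.7), while Stat6, Jak2 and Stat3 stay between 15.3 and 32.2 in all 3 groups.

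Male and female libraries were also set side by side. Mean CPM was higher in Winnie males than in Winnie females for all 10 genes, against 61.6% of the genes tested in Winnie against C57BL/6. Every Winnie male lay above every Winnie female for Lif, Jak2, Stat3 and Socs1, against 14.6% of those genes. Socs1 was at 23.4 to 30.6 CPM in Winnie males and 2.43 to 15.2 CPM in Winnie females. Osmr was at 17.2 to 37.6 CPM in Winnie males and 7.48 to 20.7 CPM in Winnie females. Neutrophil markers without Ly6g summed to 14.0 to 135 CPM in Winnie males and 1.71 to 12.9 CPM in Winnie females, and colonocyte markers to 8251 to 11067 CPM and 12999 to 16228 CPM, with no overlap in either, and their part in the difference between the sexes was not tested. In C57BL/6 the male mean was the higher for 1 of 10 genes, and in Winnie-Prolapse for 3 of 10. The test of the difference itself, a sex by group interaction, called 0 genes at an adjusted p under 0.05 in each comparison, where 0.247% of all genes passed in Winnie against C57BL/6 and 0% in both comparisons of Winnie-Prolapse. At an unadjusted p under 0.05 there were 7 of 10 genes in Winnie against C57BL/6, 0 of 10 in Winnie-Prolapse against C57BL/6 and 5 of 10 in Winnie-Prolapse against Winnie, beside 18.2%, 4.4% and 12.7% of all genes. The 7 include Osm, which passed the low-count filter of that fit only through Winnie libraries. In the same order of comparisons, DESeq2 called 2, 0 and 2 genes, beside 4.35%, 0.016% and 0.978% of all genes. The interaction estimate (female minus male) for Socs1 was -1.97 (SE 0.61, adjusted p = 0.127) in Winnie against C57BL/6 and 2.70 (SE 0.66, adjusted p = 0.3) between the Winnie groups, and for Osmr -1.59 (SE 0.48, adjusted p = 0.123) in Winnie against C57BL/6 (edgeR). Without Winnie replicate 7, the female with the highest Socs1 level, Socs1 and Osmr passed in Winnie against C57BL/6 (0.863% of all genes did) and Socs1 between the Winnie groups (0.098%). With males alone, Winnie-Prolapse against Winnie placed 0 of the genes past the wider limit, as it did 0% of all genes, and with females alone 8, beside 8.09% of all genes higher.

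The other ligands and receptors of the IL-6 family were taken as a list. Of 14 genes in Winnie-Prolapse against C57BL/6, 3 were higher and 1 lower by the stricter limits in the fit without the low-count filter, beside 6.33% and 4.28% of all genes. With the filter 10 remained, with 1 higher and 1 lower, beside 9.84% of all genes higher and 8.47% lower. Il11, a ligand of this family made by stromal cells, rose from 0.244 ± 0.110 CPM in C57BL/6 to 13.2 ± 15.8 CPM (log2 fold change 5.76, SE 0.67, adjusted p = 7.85e-06, edgeR without the filter, since with at most 13 counts in a control library it passed that filter only through Winnie-Prolapse). Its receptor chain Il11ra1 fell from 26.8 ± 3.47 to 15.9 ± 3.39 CPM (-0.67, SE 0.13, adjusted p = 0.0005), a call lost without C57BL/6 replicate 3 or 4 or Winnie-Prolapse replicate 1, 5 or 6 (adjusted p 0.00103 to 0.00153). Il6 itself was at 0 to 2 counts in each control and at 4.49 ± 7.05 CPM in Winnie-Prolapse, and Il27 was at 0.628 ± 0.340 CPM in Winnie-Prolapse and 3 counts or fewer in each control. Both were called only in the fit without the filter. The shared chain Il6st, gp130, was at 115 ± 19.2 CPM in C57BL/6 and 110 ± 28.7 CPM in Winnie-Prolapse (0.02, SE 0.14, adjusted p = 0.918), and Lifr at 22.2 ± 8.93 and 14.4 ± 4.15 CPM (-0.52, SE 0.27, adjusted p = 0.11).

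Among the 6 other JAK and STAT genes, 2 rose in Winnie-Prolapse against C57BL/6 and 0 fell, beside 9.84% of all genes higher and 8.47% lower. Stat2, a transducer of interferon signals, went from 38.9 ± 6.40 to 82.8 ± 17.2 CPM (log2 fold change 1.17, SE 0.13, adjusted p = 4.47e-06, edgeR). Of the 14 other SOCS genes and negative regulators, 1 rose and 1 fell, beside the same 9.84% and 8.47% of all genes. Their median log2 fold change was -0.12. Ptpn1, a phosphatase of JAK kinases, rose by 0.87 on the log2 scale (SE 0.10, adjusted p = 6.01e-06), and Socs2, linked to growth hormone signalling, fell from 50.3 ± 16.4 to 20.4 ± 5.46 CPM (-1.23, SE 0.20, adjusted p = 0.000131, edgeR).

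Of 25 cytokines and receptors that act through Jak3, Stat4 and Stat6, 24 had counts in Winnie-Prolapse or C57BL/6, and in the fit without the low-count filter 7 were higher and 1 lower by the stricter limits, beside 6.33% and 4.28% of all genes. Il4ra, the receptor chain that recruits Stat6, rose from 23.1 ± 7.94 to 112 ± 32.7 CPM (2.35, SE 0.22, adjusted p = 1.21e-06, edgeR), and Il13ra1 from 135 ± 8.77 to 196 ± 27.7 CPM (0.61, SE 0.07, adjusted p = 1.09e-05). The latter fell short of 1.5-fold without C57BL/6 replicate 2 or Winnie-Prolapse replicate 1 or 7 (0.56 to 0.57). The interleukin-2 receptor chains Il2rb (2.58, SE 0.32) and Il2ra (2.56, SE 0.40) rose too, and Il15 fell from 32.6 ± 15.2 to 6.67 ± 2.03 CPM (-2.21, SE 0.27, adjusted p = 1.08e-05). The common gamma chain Il2rg, the partner of Jak3, was at 7.12 ± 5.27 and 19.6 ± 7.74 CPM (1.55, SE 0.41, adjusted p = 0.00486, edgeR). It did not pass in the main fit, but did by DESeq2 and without C57BL/6 replicate 5. Among the 7, and named here after their values were seen, were the interleukin-12 receptor chain Il12rb2, upstream of Stat4, and the cytokine Ifng. Both passed the low-count filter only through Winnie-Prolapse. Il12rb2 was at 0.113 ± 0.0917 CPM in C57BL/6 and 1.65 ± 0.662 CPM in Winnie-Prolapse, and Ifng at 0 or 1 count per control library and 4.28 ± 3.17 CPM in Winnie-Prolapse. Il4 and Il13, the ligands above Stat6, had 3 counts or fewer in every library of all 3 groups.

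Of 20 genes described as STAT3 targets, 12 rose and 0 fell in Winnie-Prolapse against C57BL/6 in the fit without the low-count filter, beside 6.33% of all genes higher and 4.28% lower. Lrg1, a secreted glycoprotein, went from 1.91 ± 0.429 to 255 ± 180.2 CPM (7.19, SE 0.46, adjusted p = 2.05e-08) and Lcn2, an antibacterial lipocalin, from 1.03 ± 0.442 to 223 ± 363 CPM (7.96, SE 1.002, adjusted p = 1.44e-05, edgeR). Hif1a, the hypoxia factor, rose by 1.28 (SE 0.21, adjusted p = 0.000117). Ccnd1 (1.12, SE 0.22, adjusted p = 0.000519) and Bcl3 (1.05, SE 0.20, adjusted p = 0.000538) rose as well. The call of Ccnd1 was lost without C57BL/6 replicate 2, 4, 5 or 8 or Winnie-Prolapse replicate 2, 5 or 6 (adjusted p 0.00101 to 0.00136), and that of Bcl3 without C57BL/6 replicate 3, 5 or 8 or Winnie-Prolapse replicate 1, 4 or 6 (0.00103 to 0.0016). In Winnie against C57BL/6, 11 of 20 genes were higher at the wider limit and 0 lower without the filter, beside 4.95% and 4.74% of all genes.

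Of 11 stromal genes known to respond to oncostatin M, 10 were higher and 0 lower in Winnie-Prolapse against C57BL/6 in the fit without the low-count filter, beside 6.33% and 4.28% of all genes. The list includes Lif and shares Il6 and Il11 with the family list and Timp1 with the STAT3 list. The chemokines Cxcl9 (7.71, SE 0.48), Cxcl5 (5.28, SE 0.64), Cxcl1 (4.40, SE 0.64) and Cxcl10 (4.203, SE 0.55) and the adhesion molecule Icam1 (2.94, SE 0.32) all rose, with adjusted p-values from 1.87e-08 to 5.41e-05 (edgeR). Cxcl9 and Cxcl10 are also induced by interferon. Fap, a fibroblast protease, was lower by the stricter limits with the filter but not without it (adjusted p = 0.00152, edgeR). Fibroblast markers summed to 927 to 1234 CPM in C57BL/6, 598 to 1739 CPM in Winnie and 732 to 2282 CPM in Winnie-Prolapse, and at the wider limit 4 of 9 were higher in Winnie-Prolapse and 3 of 9 lower in Winnie, each against C57BL/6, where 16.7% of all genes were higher and 17.7% lower in Winnie-Prolapse and 8.53% lower in Winnie. Endothelial markers, which include cells that bear Osmr, summed to 66.6 to 95.9 CPM in C57BL/6, 43.1 to 165 CPM in Winnie and 91.3 to 255 CPM in Winnie-Prolapse. In Winnie-Prolapse against C57BL/6, 6 of 10 were higher at the wider limit. The part of these cell types in the level of Osmr was not tested. Without the squamous-marker libraries, 13 of the pathway genes named here lost their call in Winnie-Prolapse against C57BL/6 (Il11ra1, Ptpn1, Socs2, Il13ra1, Il15, Il2rb, Il2ra, Hif1a, Ccnd1, Bcl3, Cxcl5, Cxcl10 and Cxcl1). That fit held fewer Winnie-Prolapse libraries, and a lost call there does not by itself show a smaller difference.

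**Figure D5:**
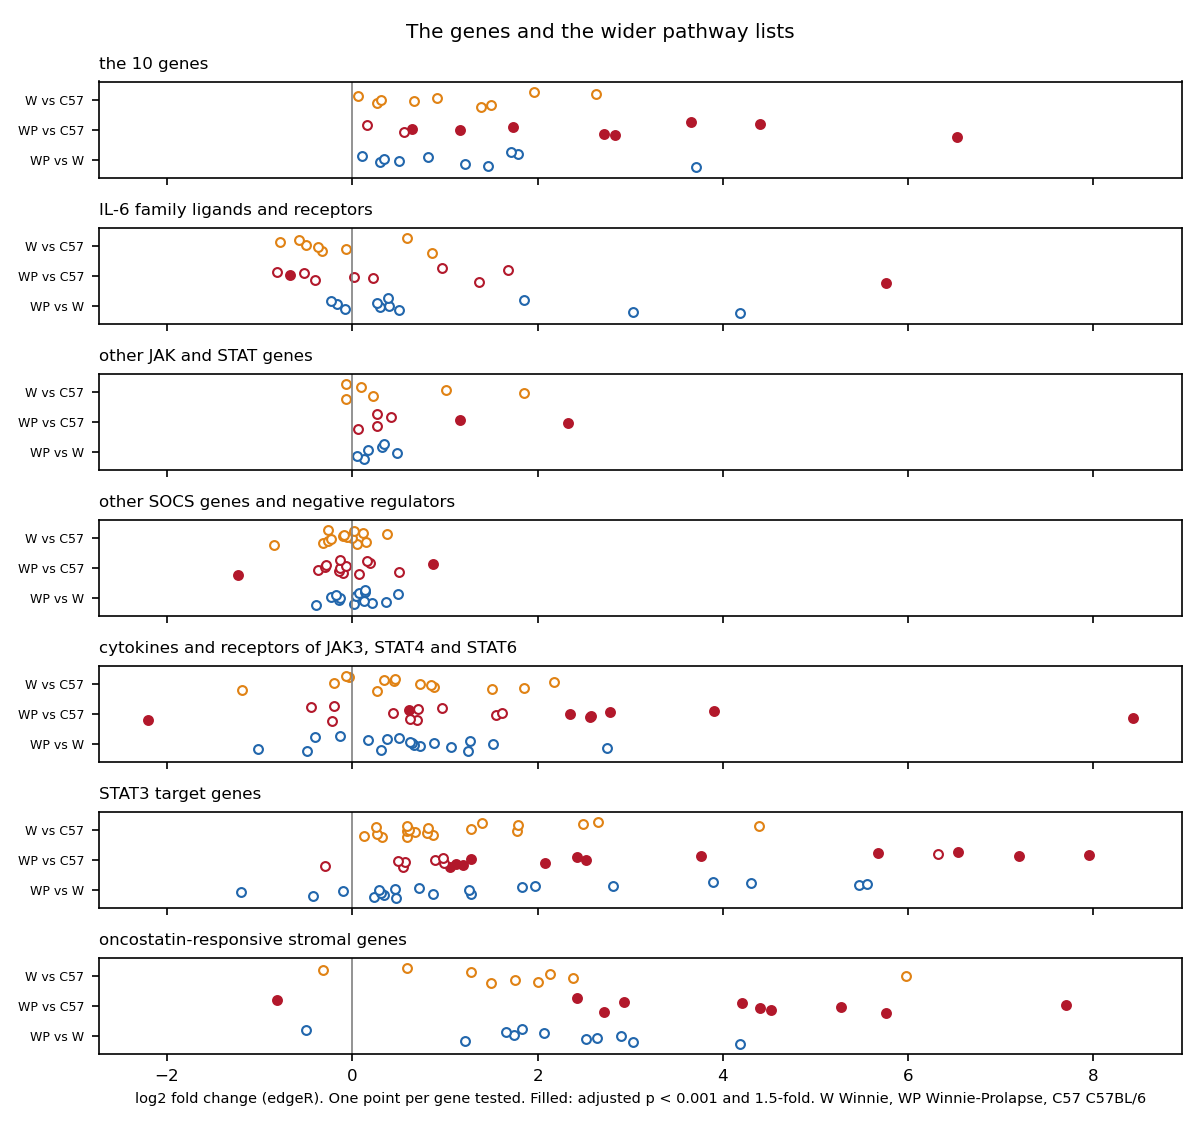
Log2 fold change of each gene tested in the 10 genes and the 6 pathway lists, for each comparison (edgeR). Filled points passed an adjusted p under 0.001 with a 1.5-fold difference, and in Winnie-Prolapse against C57BL/6 they include Lcn2 (7.96) and Cxcl9 (7.71) near the top and Socs2 (-1.23) and Il15 (-2.21) below 0.

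Genes with the most similar pattern within groups were sought by Pearson's r of log2 CPM over the 22 libraries after each group's mean was removed, among 15491 genes with a mean of at least 1 CPM. This is a description, since libraries share depth and composition. For Osm the closest were Stfa2l1 (r = 0.936), Cxcr2 (0.924), a chemokine receptor of neutrophils that is on the marker list, and Ccl4 (0.921). Among those for Osmr were Slfn10-ps (0.944) and F830016B08Rik (0.930), and those for Socs3 were Nod2 (0.925), Il4ra (0.915) and Sbno2 (0.888).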

How the data were processed

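The deposited table held raw counts per gene. The authors selected poly(A) RNA, made stranded paired-end libraries, ran the RNAsik pipeline on GRCm38 and obtained read counts from featureCounts. The annotation release and strand setting are not given in the sources used here. Groups, sex and age were read from the sample labels, which give 7 Winnie libraries, more than the study describes, and all were used. Replicate numbers only name samples, and the labels name no batch. CPM is the count over the library total. Only the groups compared entered each fit, in edgeR 4.0.16 in R 4.3.3 (TMM scaling, filterByExpr, quasi-likelihood test, Benjamini-Hochberg adjustment over all genes tested). DESeq2 1.42.0 and limma 3.58.1 were alternatives, beside other filters, scalings, sexes and libraries left out. The scripts were tested on simulated data. Members and lists were chosen with earlier results of these data known. All 10 genes were named; each pathway list gave at most 5 genes, those with the highest mean CPM among the called, or a missing partner, and some genes are not reported here. GENCODE M21 gave coordinates and exon lengths. The controls were described as littermates, but no source used here ties a library to a litter, so litter was not modelled and p-values measure the spread between these mice.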

Additional observations from a re-analysis of the deposited data

Results flagged for a closer look

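In 5 of the 30 sets of values of 1 gene in 1 group, the highest library lay further from its neighbour than Dixon's 95% limit allows. Chance marks about 1 in 20 sets where values are independent and normally distributed. These were CPM without a log, and genes of 1 library are not independent, so the count is a description. In C57BL/6 replicate 5, Osm was at 0.309 CPM and Stat4 at 1.77 CPM, and in C57BL/6 replicate 7 Socs3 was at 18.4 CPM. In Winnie replicate 2, Osm was at 3.30 CPM and Socs3 at 88.8 CPM. That library was the highest of its group for 9 of the 10 genes and also held 51.9 CPM of squamous epithelium markers and 135 CPM of neutrophil markers without Ly6g. C57BL/6 replicate 5 had the highest T cell marker sum of its group, 30.4 CPM.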

How the results depend on the processing

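The number of genes past the stricter limits moved as follows. In Winnie against C57BL/6 it was 0, but 4 by DESeq2 (4.03% of all genes higher), 3 with all 3 groups in one fit (0.979%), 1 in males only (0.637%), 5 at an adjusted p under 0.05, and 0 to 3 with 1 library left out. In Winnie-Prolapse against C57BL/6 it was 8, but 7 without TMM factors (Stat3 lost; 8.02% of all genes higher), 7 by limma-voom (Osm lost; 8.98%), 6 of 8 tested with at least 10 counts in every library (9.44%), 3 in males only (1.43%), 4 in females only (1.28%) and 4 without the squamous-marker libraries (2.29%, an alternative chosen after seeing the data), fits with fewer samples, and 7 to 9 with 1 library left out. In Winnie-Prolapse against Winnie it was 0, but 3 by DESeq2 (2.01%) and 5 at an adjusted p under 0.05. Osm is included in the 8, the 7 without TMM factors and the 7 to 9 against C57BL/6. It is also included in the 3 and the 5 against Winnie. In these fits Osm passed the low-count filter only through libraries in which it was high. Sex by group interactions numbered 0, but 2 by DESeq2 and 0 to 2 with 1 library left out in Winnie against C57BL/6, and 2 by DESeq2 and 0 to 1 with 1 library left out between the Winnie groups. Among log2 fold changes of the 10 genes, 709 of the values under alternatives kept direction and call, 20 lost a call, 28 gained one and 3 turned sign: Stat6 in Winnie against C57BL/6 (-0.0131 without TMM factors, -0.0546 in females only) and Jak2 between the Winnie groups (-0.000353 in males only). Among the values of the named pathway genes under alternatives, 1566 kept direction and call, 68 lost a call, 22 gained one and 3 turned sign. Of the losses in Winnie-Prolapse against C57BL/6, 16 came in males only, 17 in females only and 13 without the squamous-marker libraries. The sign turned for Ccnd1 in Winnie against C57BL/6 in females only (-0.0505), and Il11ra1 (0.0502) and Stat2 (-0.179) between the Winnie groups in males only. The cause was not tested. No paired analysis was made, because replicate numbers only name samples and the labels tie no library to a library of another group. Depth limits Osm in C57BL/6, where 4 of 8 libraries held 3 counts or fewer.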
